A study of Oryza sativa with 12 samples.

Results

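The comparison described here is that of rice cells (Oryza sativa) kept for 24 h without sucrose against cells of the same age kept with it. It rests on the 3 arrays of 12 whose titles, per the labels, give 24 h of sucrose starvation. On each array the starved cells, in Murashige and Skoog medium with no sucrose, carried the dye Cy5, and their controls, given that medium with 3% sucrose added, carried Cy3. Both were suspension cells, that is, dividing cells grown as loose clumps in liquid medium. The cultivar is not given in the sources used here. The other 9 arrays were 3 each for 12 h and 48 h with the same control, and 3 for 12 h against control cells that also lacked sucrose but had 88 mM sorbitol, a sugar alcohol meant to hold the osmotic pressure. The question stated for the series was how expression in these cells changes over periods of sucrose starvation, with sorbitol as the osmotic control.

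Of the 21495 probes in the deposited table, 20971 had a value on all 3 arrays at 24 h and are the members of the comparison. Averaging the probes of each gene gave 18938 features, 15387 genes and 3551 probes with no gene, and 2054 of the genes had a name. Each value is a log2 ratio of starved over control cells, so a value of 1 is a ratio of 2 and a value of -1 a ratio of 0.5. The direction was taken from the dyes in the labels and is the likely one, since the table does not name the channel in the denominator. A ratio gives no level, so the identity of the cells could not be checked by marker levels, and fewer cells of a type and less RNA per cell cannot be told apart. The labels do not say whether the 3 arrays came from separate cultures, and no array had its dyes swapped. P-values therefore measure only the spread between arrays, and an effect of the dyes cannot be told apart from starvation.

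Cultured plant cells take sucrose from the medium as their main carbon source. When it runs out, they are known to draw on starch, on membrane lipids and on protein, and to slow growth and division. In rice, the alpha-amylase genes of the RAmy3 group are the classical genes switched on by sugar starvation, through promoter elements bound by MYB proteins and downstream of the kinase SnRK1. Hexokinases and sugar transporters carry, sense and release the sugar.

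Replicate 3 stood apart. Across features, replicates 1 and 2 correlated at 0.693, while replicate 3 correlated with them at 0.392 and 0.356; features are not independent replicates. Over all probes of an array, the log2 ratios had an SD of 0.78, 0.98 and 0.65 on replicates 1 to 3, and the array medians lay between -0.03 and 0.02. Replicate 3 was also the 24 h array whose values could not, by themselves, settle that they were natural logs. Results are therefore given with and without it.

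At 24 h, 683 of the 18938 features (3.61%) passed limma's test at an adjusted p of 0.05, 396 higher (2.09%) and 287 lower (1.52%) in starved cells. They comprised 579 genes and 104 probes with no gene. Of these genes 110 had a name, 59 higher and 51 lower, which was 5.36% of the 2054 tested genes with a name. The lists below hold genes matched by symbol, so their shares appear larger against all features than against named genes. The smallest called change was 0.78 on the log2 scale, and 647 of the 683 changed at least 2-fold. The 3 arrays had the same sign for every called feature, against 42% of all features tested. The call was made on these same arrays and favours features of 1 sign, so this describes the calls and is no test. On single probes, 699 of 20971 (3.33%) were called, 418 higher (1.99%) and 281 lower (1.34%). Counting by level alone, 327 features (1.73%) had a ratio over 2 on all 3 arrays and 217 (1.15%) a ratio under 0.5. Without replicate 3 the test called 743 features (3.92%), 447 higher (2.36%) and 296 lower (1.56%), and 292 of the 396 higher and 143 of the 287 lower features were still called. With replicate 1 left out 103 features (0.531%) were called, and with replicate 2 left out 102 (0.538%), so a call on 3 arrays often needed each of these 2. With only the 24 h arrays in the fit, 369 features were called, among them 208 of the 396 and 118 of the 287, and 26 of the 65 called genes named below by rule lost the call (adjusted p up to 0.141).

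**Figure D1:**
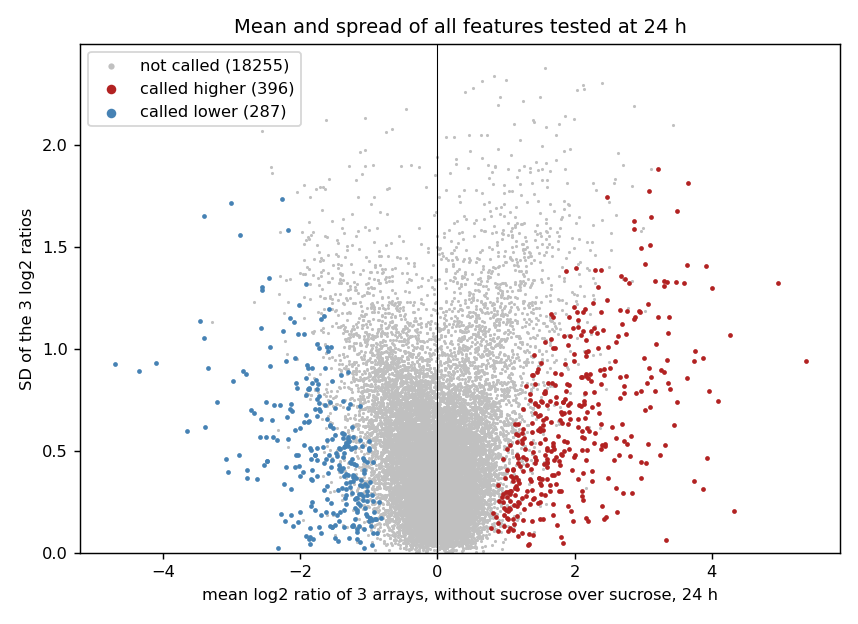
Mean log2 ratio of the 3 arrays at 24 h (horizontal axis) and SD of the 3 ratios (vertical axis) for each of the 18938 features tested; red points are the 396 called higher, blue the 287 called lower and grey the rest. Features with a mean beyond 2 were left uncalled where the SD was large.

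Genes for moving and mobilising sugar held the largest rise. SWEET1B, a member of the SWEET family of sugar uniporters, had log2 ratios of 5.81, 6.01 and 4.29, a mean of 5.37 ± 0.94 (± SD, n = 3 arrays, as for all means below) and an adjusted p of 0.00419. It rose about 41.4-fold, lowest on replicate 3, and was called under each of the 19 alternatives tried, the highest adjusted p being 0.0419. MST3, a proton-coupled importer of monosaccharides, reached 3.13, 5.08 and 2.56 (mean 3.59 ± 1.32, adjusted p 0.00793). SUT1, which loads sucrose with a proton, reached 3.35, 2.62 and 2.09 (mean 2.69 ± 0.63, adjusted p 0.00152) and was also called under all 19 alternatives. Of 14 sugar transport genes tested, 4 were called higher and 1 lower (28.6% and 7.14%, against 2.09% and 1.52% of all features), with a list median of 0.29 against 0.00 for all features. The other two were SWEET4, at 1.60, 2.36 and 3.06 (adjusted p 0.00607), and the fall, SUT2, a sucrose transporter of the vacuole membrane, at -1.23, -0.86 and -2.76 (adjusted p 0.0451). These last and other members described from a list beyond its first 3 called genes were picked after their values were seen. SUT5 had 3.21, 1.61 and 2.56 and did not pass (adjusted p 0.0730). The remaining members ran from -1.05 for SWEET1a to 0.46 for SWEET14, and 3 members, SWEET5, SWEET11 and SWEET12, had a blank on replicate 1 and no test.

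Among genes of starch breakdown, 2 of 7 were called, both higher (28.6% against 2.09% of all features). The list median was 1.19, but it moved with the arrays, to 0.51 without replicate 1, 0.75 without replicate 2 and 1.69 without replicate 3. RAmy3E, one of the starvation amylases, had ratios of 2.04, 4.64 and 2.85 (mean 3.17 ± 1.33, adjusted p 0.00858), and its 2 probes had means of 3.11 and 3.24. RAmy3D, the amylase best known from sugar-starved rice cells, had 1.55, 2.26 and 2.52 (mean 2.11 ± 0.51, adjusted p 0.0257), but its 2 probes disagreed, with means of 0.23 and 3.99. RAmy3A was high on replicate 1 alone, at 3.05, 0.56 and 0.45, and did not pass (adjusted p 0.413). The amylase AMY1.1 had 1.32, 2.06 and 0.18 (adjusted p 0.262), and GWD3 and DPE2, of the pathway that breaks down starch in plastids and cytosol, had means of 0.36 and -0.41.

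Of the enzymes that phosphorylate hexoses and those that cleave sucrose, 1 gene each was called. The gene listed as both HXK6 and HXK7, LOC4338010, encodes a hexokinase and had the closest arrays of the called sugar genes, 2.89, 2.51 and 3.08 (mean 2.83 ± 0.29, adjusted p 0.00102), and was called under all 19 alternatives. It was the only 1 of 10 hexokinase and fructokinase genes called (10% against 2.09% of all features higher), and the list median was 0.09. SUS1, a sucrose synthase, which splits sucrose for use in growing cells, fell, at -2.36, -2.49 and -1.85 (mean -2.23 ± 0.34, adjusted p 0.00557). It was the only 1 of 14 genes of sucrose cleavage and synthesis called (7.14% against 1.52% of all features lower). Leaving out replicate 1 or 2 ended the call of 4 and 6 of the 9 called sugar genes named here, with adjusted p up to 0.145 and 0.168, and leaving out replicate 3 that of 2, SUT2 at 0.129 and RAmy3D at 0.0781.

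**Figure D2:**
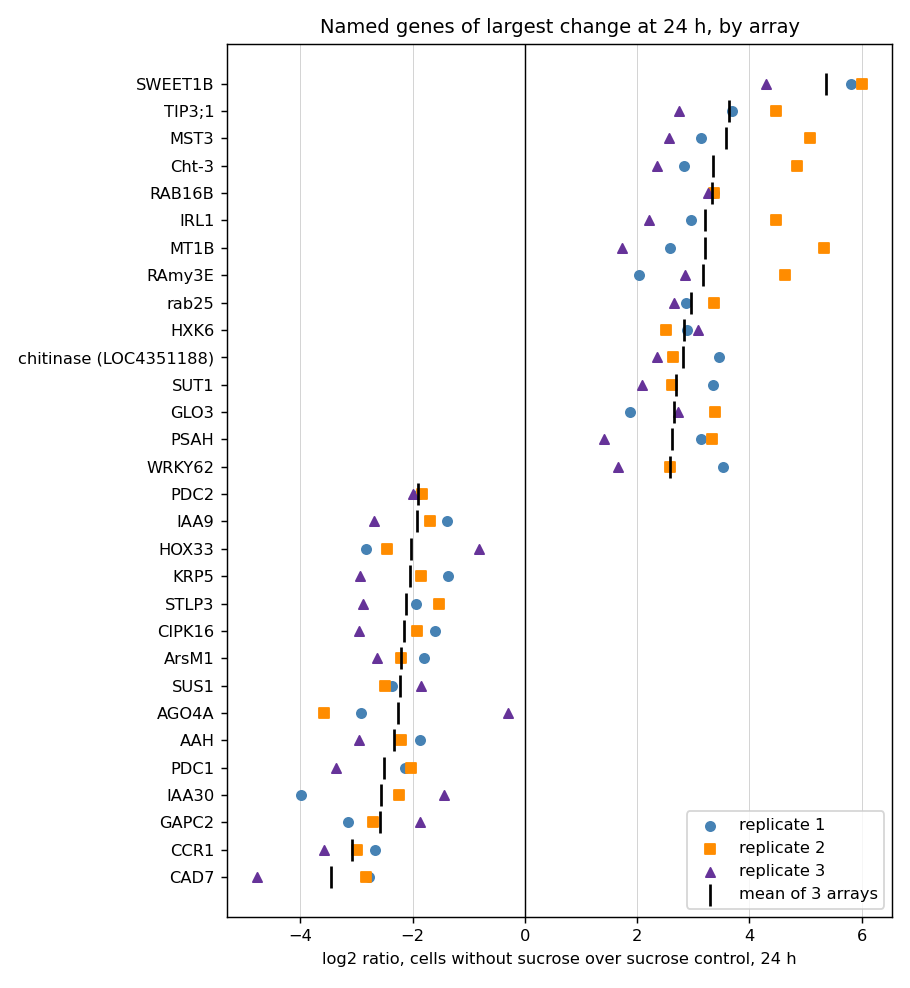
Log2 ratios at 24 h on replicates 1 (circles), 2 (squares) and 3 (triangles) for the 15 named genes with the largest called rise and the 15 with the largest called fall; black ticks are means. SWEET1B lies above 4 on every array, and RAB16B and PDC2 show the closest replicates.

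Genes of glycolysis and fermentation were among those that fell. Of 12 glycolytic genes tested, 4 were called lower (33.3% against 1.52% of all features) and none higher. The list median was -1.03, and 11 of the 12 means were below 0, against 50% of all features. GAPC2, cytosolic glyceraldehyde-3-phosphate dehydrogenase, had -3.15, -2.71 and -1.86 (mean -2.57 ± 0.66, adjusted p 0.00298) and was called under all 19 alternatives. PK2, counted by its symbol as a pyruvate kinase, had -2.24, -2.60 and -0.86 (adjusted p 0.0229), PGI-B, a glucose-6-phosphate isomerase, -1.74, -2.57 and -0.92 (adjusted p 0.0270), and Eno1, enolase, -2.10, -1.46 and -1.16 (adjusted p 0.0370). All 4 were least lowered on replicate 3, and the list median by array was -1.43, -1.03 and -0.61. Of 4 fermentation genes 2 were called lower, PDC1 at -2.14, -2.02 and -3.36 (mean -2.51 ± 0.74, adjusted p 0.0153) and PDC2 at -1.89, -1.84 and -2.00 (mean -1.91 ± 0.08, adjusted p 0.0106), both pyruvate decarboxylases, the enzymes that turn pyruvate to acetaldehyde. Adh2, an alcohol dehydrogenase, had -1.54, -0.83 and -0.77 (adjusted p 0.0964). None of 13 genes of the tricarboxylic acid cycle and of pyruvate dehydrogenase, which feeds it, was called (median -0.06), and PPDKB, pyruvate orthophosphate dikinase, which runs the last glycolytic step backwards, had 1.66, 4.05 and 2.60 and an adjusted p of 0.0508. PPDKB was called under 9 of the 19 alternatives. Its adjusted p was 0.0412 with the replicate number as a block, 12 h arrays included, and 0.0434 with only the 24 h arrays. Without replicate 3, PDC1 had an adjusted p of 0.0572 and Eno1 0.0542, and 4 glycolytic genes were called lower (background 1.56%), 3 of them among the 4 above. PDC1 was also uncalled after scaling of the arrays (0.0600), and PK2 and PGI-B with only the 24 h arrays (0.0641 and 0.0662). Without replicate 1 or 2, GAPC2 alone of these 6 genes stayed called, at 0.0308 each time.

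In the list of leucine breakdown and the electron transfer flavoprotein, a carrier that hands electrons from amino acid oxidation on to respiration, 3 of 6 genes were called higher (background 2.09%) and none lower. All 6 were above 0 on all 3 arrays, as were 21.6% of all features, the list median was 1.13, and the medians by array were close, at 1.44, 1.38 and 1.20. IVD, isovaleryl-CoA dehydrogenase of leucine breakdown, had 2.20, 1.46 and 2.78 (mean 2.14 ± 0.66, adjusted p 0.00732). D2HGDH, D-2-hydroxyglutarate dehydrogenase, which feeds the flavoprotein, had 1.71, 2.04 and 2.08 (adjusted p 0.0152), and ETFB, a subunit of the flavoprotein, 0.63, 1.31 and 1.35 (adjusted p 0.0402). MCCA, ETF-QO and ETFA had means of 1.16, 0.85 and 0.77 and did not pass. GDH2, glutamate dehydrogenase, which can release ammonium from glutamate, had 1.88, 1.47 and 2.07 (mean 1.81 ± 0.30, adjusted p 0.00770), with probe means of 0.53 and 3.09. On the nitrogen intake side NIA1, nitrate reductase, had -1.42, -1.53 and -2.00 (adjusted p 0.0188), but its 2 probes had means of -3.30 and 0.00, so its value rests on 1 of them. They were the only calls among 18 nitrogen assimilation and transport genes (5.56% higher and 5.56% lower, against 2.09% and 1.52% of all features). Outside that list AAH, allantoate amidohydrolase of purine breakdown, fell, at -1.87, -2.20 and -2.95 (mean -2.34 ± 0.55, adjusted p 0.0112).

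Of 18 genes of amino acid synthesis 2 were called, both lower (11.1% against 1.52% of all features). DAHPS1, which opens the shikimate pathway to aromatic amino acids, had -1.99, -1.38 and -1.47 (adjusted p 0.0284), and SAM2, S-adenosylmethionine synthetase, -1.15, -0.85 and -1.57 (adjusted p 0.0223). The list median was -0.58, but only -0.10 on replicate 3 against -0.93 and -0.72 on replicates 1 and 2. Leaving out replicate 3 ended the call of 5 of the 8 amino acid and nitrogen genes named above (D2HGDH, ETFB, NIA1, SAM2 and DAHPS1, adjusted p 0.0506 to 0.106), leaving out replicate 1 that of all 8 (up to 0.196) and leaving out replicate 2 that of 6 (up to 0.260).

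Genes known from drying seeds and from the vacuole membrane were among the called rises. RAB16B, a dehydrin, a hydrophilic protein made under abscisic acid and water loss, had 3.38, 3.37 and 3.27 (mean 3.34 ± 0.06, adjusted p 0.000268). Its SD was the smallest of the 15 named rises, and it was called under all 19 alternatives. The related rab25 had 2.87, 3.37 and 2.66 (mean 2.97 ± 0.37, adjusted p 0.0152), and the list of dehydrins and late embryogenesis abundant proteins had 2 of 6 called higher (background 2.09%), none lower and a median of 1.65. The embryo protein gene EM had 1.47, 3.35 and 1.98 but did not pass (adjusted p 0.117). TIP3;1, an aquaporin of the vacuole membrane typical of seeds, had 3.69, 4.47 and 2.75 (mean 3.64 ± 0.86, adjusted p 0.000906) and was called under all 19 alternatives, and TIP1;1 had 2.34, 1.63 and 1.41 (adjusted p 0.0306). In contrast PIP2;1, an aquaporin of the plasma membrane, fell, at -1.50, -1.17 and -2.61 (adjusted p 0.00732). Of 24 aquaporins 2 were thus called higher and 1 lower (8.33% and 4.17%, against 2.09% and 1.52% of all features), with a median of 0.20 that was 0.05 without replicate 2 and 0.34 without replicate 3. TIP2;2, of the vacuole membrane, was high on all 3 arrays, at 3.16, 4.49 and 1.32, and missed the threshold (adjusted p 0.0563).

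Seed storage protein genes gave no call, which says little for so short a list when 3.61% of all features were called. None of 6 passed, their median was -0.01, and their means lay between -0.55 for GLUA-2 and 0.18 for RAG2. In the photosynthesis and chlorophyll list 2 of 13 were called higher (background 2.09%) and none lower (median 0.24). PSAH, a subunit of photosystem I, had 3.14, 3.34 and 1.40 (adjusted p 0.0202), and PSBW, of photosystem II, 2.90, 2.96 and 1.19 (adjusted p 0.0265). Both were lowest on replicate 3. GLO3, by its name a glycolate oxidase of the peroxisome, had 1.87, 3.38 and 2.74 (mean 2.66 ± 0.76, adjusted p 0.00793). CAT-B, a catalase that removes hydrogen peroxide, had 1.20, 1.54 and 2.04 (adjusted p 0.0129), and was the only 1 of 14 genes of catalase, superoxide dismutase and ascorbate enzymes called. None of 5 peroxisome and glyoxylate cycle genes passed, although ICL, isocitrate lyase, which lets cells build sugar from fat, had 3.49, 3.37 and 0.72 (adjusted p 0.114).

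Metallothioneins, small metal-binding proteins, had 2 of 7 called higher (background 2.09%) and none lower, with a median of 0.92. MT1B had widely spaced arrays, 2.59, 5.33 and 1.72 (mean 3.22 ± 1.88, adjusted p 0.0334), and MT2C close ones, 1.25, 1.44 and 1.33 (adjusted p 0.0206). The 2 probes of MT2C had means of 0.93 and 1.74, and with the probe of the larger mean size alone it was not called (adjusted p 0.226), while MT1B was not called with only the 24 h arrays (0.0713). Of the 8 called genes among RAB16B, rab25, the aquaporins, the metallothioneins and CAT-B, 5 lost the call without replicate 1 (adjusted p up to 0.216), 5 without replicate 2 (up to 0.240) and 3 without replicate 3, TIP1;1, MT2C and CAT-B, at 0.0526, 0.0542 and 0.0518.

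Chitinases, which cut fungal cell walls and are also made in stressed or ageing tissue, had 4 of 14 called higher (28.6% against 2.09% of all features) and none lower, with a list median of 0.58 (0.92 without replicate 3) and medians by array of 0.78, 1.05 and 0.93. Cht-3 had 2.84, 4.86 and 2.35 (mean 3.35 ± 1.33, adjusted p 0.00950). CH16 (LOC4342115) had 1.46, 2.85 and 2.22 (adjusted p 0.0379), the gene LOC4351188, listed as a chitinase, 3.46, 2.64 and 2.36 (adjusted p 0.0202), and Rcb4 1.37, 3.25 and 1.32 (adjusted p 0.0405). Near-identical members of this family could share signal on a probe. Without replicate 3, CH16 had an adjusted p of 0.0848 and Rcb4 0.0514. Without replicate 1 or 2 none of the 4 was called (adjusted p 0.0572 to 0.302).

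Among regulators, calls lay in several families, 1 to 3 to a list, to be read against 3.61% of all features and 5.36% of genes with a name. In the list of SnRK1 kinases and MYBS factors, 1 of 5 genes was called, MYBS1, a MYB factor that activates amylase promoters in rice, at 2.79, 2.12 and 0.79 (mean 1.90 ± 1.02, adjusted p 0.0222). OSK3, an SnRK1 kinase, was higher on replicate 3 than on the other two, at 0.66, 0.56 and 2.06, and did not pass (adjusted p 0.0910), nor did the related K24, at 1.34, 1.20 and 0.99 (adjusted p 0.0953). Of 58 abscisic acid signalling genes 2 were called, both higher, 3.45% of the list. That share lay near the 2.09% of all features called higher, and below the 5.36% of named genes called in either direction. They were SAPK6, a kinase of the pathway, at 1.05, 2.71 and 1.92 (adjusted p 0.0103), and PP2C61, by its name a phosphatase, at 0.97, 1.62 and 0.57 (adjusted p 0.0369). The name of PP2C61 alone does not show a role in the pathway.

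WRKY62, a transcription factor of defence, rose, at 3.54, 2.59 and 1.65 (mean 2.59 ± 0.94, adjusted p 0.0132), 1 of 12 NAC and WRKY genes called. BZIP52 had 2.97, 1.61 and 1.82 (adjusted p 0.0231), 1 of 14 bZIP genes, and JAZ12, a repressor of jasmonate signalling, 1.43, 3.34 and 1.40 (adjusted p 0.0168), 1 of 15 JAZ genes. HSF09 and HSF25, counted by name as heat shock factors, had means of 1.10 ± 0.41 and -1.18 ± 0.21 (adjusted p 0.0347 and 0.0207). They were the only calls among 33 heat shock proteins and factors. HSF25 is also listed as ARD1, OsIDI1 and SIP2, so whether its fall is that of a heat shock factor is not settled. Of 34 glutaredoxins and thioredoxins, small proteins that reduce disulphides, Trx15 and GRXS3 were called higher, with means of 1.57 ± 0.56 and 1.52 ± 0.74, and GRXC3 lower, at -1.59 ± 1.20. GF14B, a 14-3-3 protein, had 1.08, 1.23 and 1.23 (adjusted p 0.0306). CIPK16, a kinase of calcium signalling, fell, at -1.60, -1.93 and -2.95 (mean -2.16 ± 0.70, adjusted p 0.0168), the only call among 41 calcium-linked kinases. Of the 13 called regulators named here, 12 lost the call without replicate 1 (adjusted p up to 0.189), 13 without replicate 2 (up to 0.298) and 4 without replicate 3 (up to 0.103).

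Auxin response genes gave the largest number of falls of any list. Of 53 tested, 10 were called lower and none higher, 18.9% of the list against a background of 1.52%, and 37 of the 53 means were below 0, with a median of -0.19. The falls lay in some members only, 7 of them Aux/IAA genes, which encode short-lived repressors that auxin both destroys and induces. IAA30 had -3.99, -2.24 and -1.44 (mean -2.56 ± 1.30, adjusted p 0.0300) and IAA9 -1.39, -1.69 and -2.68 (mean -1.92 ± 0.68, adjusted p 0.0103). IAA19 had the lowest adjusted p of the list, 0.00770, with -1.83, -1.32 and -1.69. The others were IAA12, IAA1 (LOC4334069), IAA3 and IAA15, with means of -1.54 ± 0.13, -1.36 ± 0.21, -1.07 ± 0.45 and -0.98 ± 0.17. The response factors ARF15 and ARF3, which bind auxin-regulated promoters, had -1.02, -2.81 and -1.67 (adjusted p 0.0257) and -1.15, -2.08 and -0.68 (adjusted p 0.0265), and GH3-8, an enzyme that conjugates auxin to amino acids, -1.70, -1.27 and -0.78 (adjusted p 0.0398). Other Aux/IAA genes had means above 0, such as IAA6 at 0.95 and IAA18 at 0.62, neither called. The list medians by array, -0.27, -0.24 and -0.21, did not set replicate 3 apart. Without replicate 3, 6 of the 53 were called lower (background 1.56%), and without replicate 1 or replicate 2, 1 each (backgrounds 0.201% and 0.242%).

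CAD7 and CCR1, which by name encode a cinnamyl alcohol dehydrogenase and a cinnamoyl-CoA reductase, enzymes of the path to lignin, were the largest named falls. CAD7 had -2.78, -2.82 and -4.77 (mean -3.45 ± 1.14, adjusted p 0.0108) and CCR1 -2.68, -2.98 and -3.58 (mean -3.08 ± 0.46, adjusted p 0.00737), both lowest on replicate 3. The other 11 lignin genes were not called, so 15.4% of the list was called lower, against 1.52% of all features. The list median was 0.05. Among 26 homeobox factors 2 were called lower (7.69% against 1.52% of all features). They were HOX33, of a class that guides organ polarity and vascular development, at -2.84, -2.46 and -0.82 (adjusted p 0.0473), and HOX2, at -1.23, -1.53 and -2.51 (adjusted p 0.0109). Hox22 had 2.64, 2.52 and 0.98 and did not pass (adjusted p 0.0697). CAD7, CCR1, HOX33 and HOX2 stayed called without replicate 3 (adjusted p 0.0309 to 0.0437). All 4 lost the call without replicate 2 (0.0571 to 0.286), and CAD7 and HOX33 lost it without replicate 1 (0.0569 and 0.293).

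Lists of growth genes had lower medians on replicates 1 and 2 than on replicate 3. Of 20 DNA replication genes 2 were called lower (background 1.52%), PCNA, the sliding clamp of the polymerase, at -1.56, -1.84 and -0.75 (adjusted p 0.0217), and ORC1, of the complex that marks origins, at -1.28, -2.34 and -0.62 (adjusted p 0.0477). The list medians by array were -0.44, -1.03 and 0.01. MCM5, of the replicative helicase, had -3.15, -3.85 and -0.28 and did not pass (adjusted p 0.170). Of 40 cyclins and their kinases 1 was called lower, KRP5, which by name encodes an inhibitor of these kinases, at -1.36, -1.85 and -2.94 (mean -2.05 ± 0.81, adjusted p 0.0120), lowest on replicate 3, whereas the list medians were -0.37, -0.57 and 0.05. No kinesin of 24 was called, with list medians of -0.75, -0.94 and -0.26, and KIN13B, at -2.92, -3.46 and -0.50, was the nearest (adjusted p 0.0508).

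Of 19 ribosomal protein genes 3 were called lower (15.8% against 1.52% of all features), RPS10 at -1.45, -1.13 and -1.03 (adjusted p 0.0356), RPL5 at -1.46, -1.63 and -0.68 (adjusted p 0.0351) and RPS10-1 at -1.43, -0.77 and -1.62 (adjusted p 0.0278). Of the 19 means 18 were below 0, against 50% of all features, yet the list medians were -0.88, -0.70 and 0.16, so replicate 3 did not share the shift. Translation factors, with none of 8 called, had medians of -0.32, -0.31 and 0.41, and tubulins and actins, with none of 12 called, -0.49, -0.68 and 0.07. The arrays numbered 3 at other times were also the highest of their group for the ribosomal list, with medians of -1.12, -0.47 and -0.14 at 12 h and -0.79, -1.61 and -0.58 at 48 h. Without replicate 3, the list medians at 24 h were -0.83 for ribosomal proteins, -0.77 for DNA replication, -1.04 for kinesins and -0.45 for cyclins, and 1, 2, 2 and 3 of their genes were called lower (background 1.56%). Of the 6 genes called in these lists on all 3 arrays, leaving out replicate 3 ended the call of RPS10 and RPS10-1 (0.0625 and 0.0854), replicate 1 that of 5 (up to 0.225) and replicate 2 that of all 6 (up to 0.356).

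Across the 54 lists with at least 5 members tested, 23 had medians of 1 sign on all 3 arrays, and in 23 replicate 3 had the opposite sign to both others. Replicate 1 was the odd array in 4 lists and replicate 2 in 4. In 24 of the 54 lists no member was called, among them the expansins, XTH genes and cellulose synthases of the cell wall (48 tested, median -0.05), the proteasome (16, median -0.06), protein folding in the endoplasmic reticulum (28, median 0.05) and starch synthesis (6 tested). All 4 autophagy genes tested were also uncalled, with a median of 0.04. With 3.61% of all features called, the absence of a call in a short list says little.

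**Figure D3:**
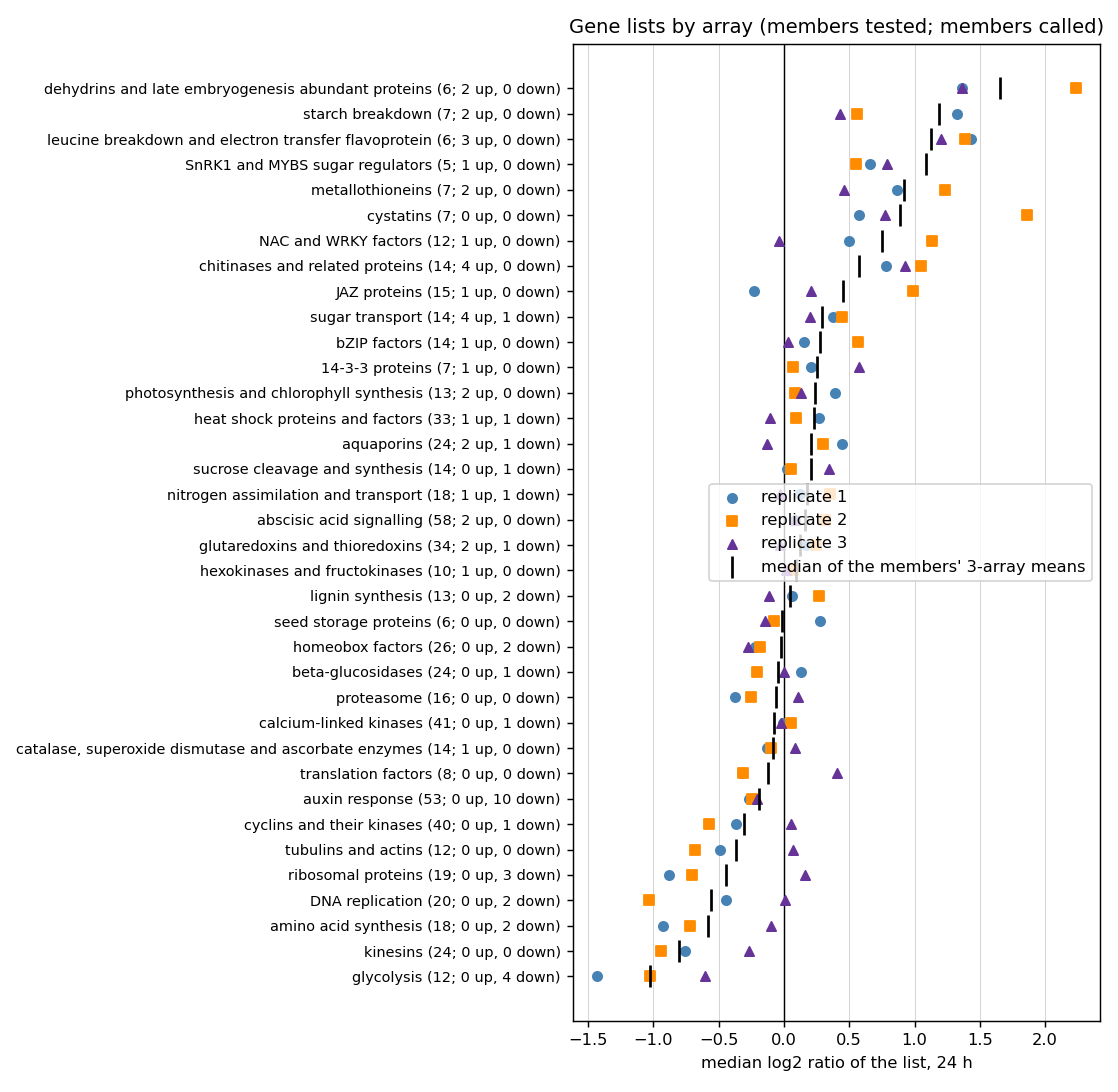
Median log2 ratio at 24 h of each gene list on replicates 1 (circles), 2 (squares) and 3 (triangles), with the median of the members' means as a black tick; brackets give the members tested and those called higher and lower. The 3 arrays lie together for leucine breakdown and auxin response, while replicate 3 lies at or above 0 for ribosomal proteins, DNA replication, cyclins, tubulins and translation factors.

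Further changes lay outside the groups above. IRL1, which by name encodes a leucine-rich repeat protein, rose, at 2.96, 4.48 and 2.21 (mean 3.22 ± 1.16, adjusted p 0.0122). Among falls, AGO4A, an Argonaute protein that binds small RNAs, had -2.91, -3.57 and -0.29 (mean -2.26 ± 1.74, adjusted p 0.0367), with almost no change on replicate 3. The gene listed as both ArsM1 and Smt2-1 had -1.79, -2.20 and -2.63 (mean -2.21 ± 0.42, adjusted p 0.00787). The first name is that of an arsenic methyltransferase, but with the second name the enzyme is not settled. STLP3 had -1.94, -1.54 and -2.89 (adjusted p 0.0314). BGLU31, a beta-glucosidase, had -2.09, -1.81 and -1.63 (adjusted p 0.0185), the only call among 24 such genes (4.17% against 1.52% of all features lower). Genes with no name, picked here after their values were seen, included changes as large as these. LOC4333820 had 4.65, 6.42 and 3.83 (mean 4.97 ± 1.32, adjusted p 0.00152), and LOC4332422 had arrays close together, 4.11, 4.52 and 4.33 (mean 4.32 ± 0.21, adjusted p 0.000268). The largest fall of all features was LOC4347408, at -3.96, -4.41 and -5.74 (mean -4.70 ± 0.93, adjusted p 0.00204), followed among unnamed genes by LOC4348110, at -2.35, -2.56 and -5.31 (adjusted p 0.0288). The first 3 of these were called under all 19 alternatives. Of the 8 named genes, PSAH, PSBW and GLO3 included, 6 lost the call without replicate 1 (adjusted p up to 0.235), 8 without replicate 2 (up to 0.280) and only STLP3 without replicate 3 (0.0994). LOC4348110 lost it without any 1 of the 3 arrays.

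The 24 h ratios were then set beside those of the other times. The difference between 24 h and 12 h was called for 0 of 17968 features (0%), with 315 at an unadjusted p under 0.05, and that between 48 h and 24 h for 0 of 16474 (0%), with 213. Both counts are below the share of 0.05 that such p-values would give if no feature differed, for a reason that was not tested. The absence of calls therefore does not show that the times are alike. Same-numbered arrays of 24 h and 48 h deviated together. With arrays of the same number as a block the second count was again 0, with 428 at an unadjusted p under 0.05. That block included the 12 h arrays, whose numbers were not taken to pair them with 24 h. With only the 24 h and 48 h arrays the block gave 1 call, lower at 48 h, and 952 features at an unadjusted p under 0.05. Of the 396 features called higher at 24 h, 378 of 392 with values were above 0 on all 3 arrays at 12 h and 385 of 389 at 48 h, against 22.1% and 27.5% of all features. Of the 287 called lower, 265 of 286 were below 0 on all 3 arrays at 12 h and 281 of 283 at 48 h, against 18.3% and 26.6%. The spread of the 12 h and 48 h arrays entered the test that chose these features, so the shares describe them and are no test. The median ratio of the higher features was 1.54 at 12 h, 1.84 at 24 h and 2.05 at 48 h, and that of the lower ones -1.34, -1.58 and -1.90.

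Means of single genes over the times are given here as description only, since the main fit called no difference between times. HXK6 had means of 2.98 ± 0.46, 2.83 ± 0.29 and 2.53 ± 0.52 at 12, 24 and 48 h. Cht-3 had means of 1.22 ± 0.55, 3.35 ± 1.33 and 5.47 ± 1.38, and the difference between 24 h and 12 h did not pass (unadjusted p 0.0164, adjusted p 0.9996). RAB16B had 2.92 ± 0.50, 3.34 ± 0.06 and 4.73 ± 0.32, and the difference between 48 h and 24 h did not pass (unadjusted p 0.00168, adjusted p 0.9998). PDC1 had -2.66 ± 0.92, -2.51 ± 0.74 and -4.30 ± 1.14, and GDH2 2.63 ± 0.55, 1.81 ± 0.30 and 2.52 ± 0.54, lowest at 24 h. LOC4332422, chosen here after its values were seen, had its highest mean at 24 h, with 2.74 ± 0.44, 4.32 ± 0.21 and 2.93 ± 0.82. Neither difference from 24 h passed (unadjusted p 0.00333 and 0.00737, adjusted p 0.9996 and 0.9998).

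The sorbitol arrays, at 12 h only, set starved cells against cells that also lacked sucrose. On these 3 arrays alone limma called 6976 of 19429 features (35.9%), but only 0.809% of the features tested at 24 h had a mean ratio of at least 1 in size there. The features called higher at 24 h had a median ratio of 0.17 against sorbitol, and those called lower -0.16, where the sucrose control at the same 12 h gave 1.54 and -1.34. Of the 396 higher features 14 had a mean of at least 1 against sorbitol and 4 of -1 or less, and of the 287 lower ones 0 and 4. SWEET1B, MST3 and RAmy3E had means against sorbitol of -0.78 ± 0.16, 0.28 ± 0.17 and -0.28 ± 0.19, and GAPC2, SUS1 and PDC1 -0.78 ± 0.31, -0.15 ± 0.10 and -0.28 ± 0.06. Of these only SUS1 was not called in the sorbitol test (adjusted p 0.166, the others 0.000143 to 0.0350). SWEET1B and RAmy3E were called there with the opposite sign to 24 h, as was Cht-3 (-0.54 ± 0.17, adjusted p 0.00132). MST3, GAPC2 and PDC1 had the same sign as at 24 h. RAB16B and PSAH had the largest positive ratios against sorbitol among the named genes, 1.12 ± 0.26 and 1.21 ± 0.17, each of the same sign as at 24 h. The controls and times differ, so no test was made between the sorbitol and the 24 h ratios.

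**Figure D4:**
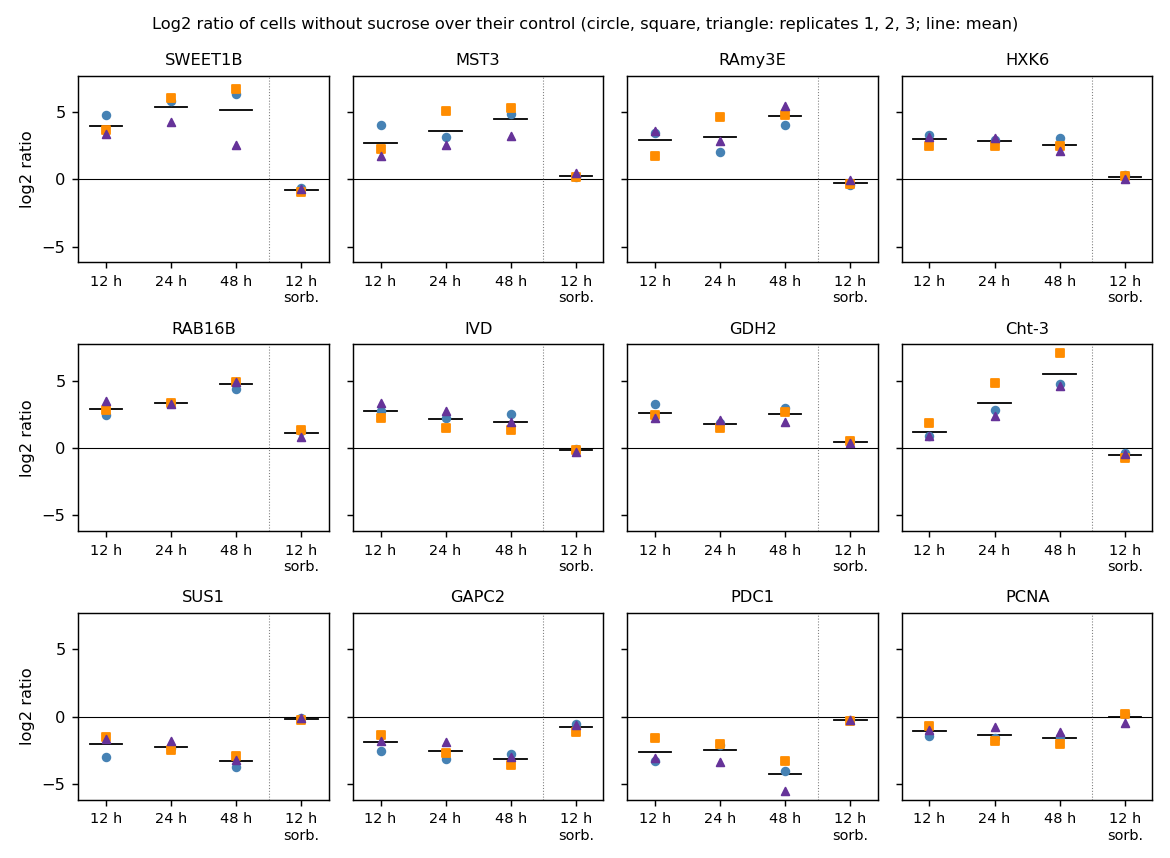
Log2 ratios of 12 genes on each array at 12, 24 and 48 h against sucrose and at 12 h against sorbitol (right of the dotted line); symbols are replicates 1 to 3 and lines are means. The ratios against sucrose keep their sign from 12 to 48 h. Mean ratios against sorbitol are 1.12 for RAB16B, -0.78 for SWEET1B and GAPC2, -0.54 for Cht-3 and 0.47 for GDH2. The other genes lie between -0.28 and 0.28 there.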

How the data were processed

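The values were natural logs of the ratio between 2 channels, as the authors deposited them in 1 table with a column for each of 12 Agilent arrays; the sources used here do not give the steps from scanner to table. That they are natural logs was read from the values: on replicate 1 of 24 h, 111 were the log of a number with 1 decimal if natural (within 1e-05), against 3 if log2 and 1 if log10. Replicates 2 and 3 had 15 and 5, so replicate 3 was taken to share the scale. Dividing by the natural log of 2 gave log2 ratios. Column medians at 24 h were 0.018, -0.027 and 0.013, and how they were centred is unknown. No scanner intensities entered, so signal over background is unknown and the number of arrays limits the precision. Blanks (2.41% of the table) were not filled in.

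Probes were named through GEO's platform annotation (17839 probes with 1 gene, 21 with several, 3635 with none) and a RefSeq gene table of assembly ASM3414082v1, which held 100% of the gene IDs. No coordinates or sequences were used, and promoter shares were not computed. Probes of a gene were averaged (1859 genes had more than 1), where all of them had a value.

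The model (limma 3.58.1, lmFit and eBayes, R 4.3.3) covered the 9 arrays with a sucrose control, 1 coefficient for each time, tested two-sided against 0 or against each other, with Benjamini-Hochberg adjustment over all features and a threshold of 0.05. The sorbitol arrays, which vary less, were fitted alone. The fit was tested on simulated data with independent noise on each array, which says nothing on arrays that deviate together. Same-numbered arrays of 24 h and 48 h deviated together from their group means (correlations 0.567, 0.446 and 0.497, each array best with its own number), so array numbers were taken to pair these 2 times. Alternatives were all 12 arrays, the 24 h arrays alone, each replicate left out, a replicate block, array weights, median scaling, quantile normalization, centring, blanks allowed and the probe with the largest mean size; arrays numbered 3 left out, 12 h and 48 h replicates left out, and a block on 24 h and 48 h alone were chosen after seeing the data.

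The genes, lists and rule were chosen with earlier results of these data known. Named were the 15 largest called rises and falls with a name and 1 sign on 3 arrays, up to 3 called members of each list, and a panel of 17 genes. The 59 lists match gene symbols; 16 were added after the gene names in the files were seen, and entries whose name did not belong were dropped by name. Tables and figures were made with Python.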

Additional observations from a re-analysis of the deposited data

How the results depend on the processing

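The count of 683 called features moved with the arrays that shared the estimate of spread and with scaling. It was 1653 with all 12 arrays, 369 with the 24 h arrays alone and 5739 with array weights (2703 higher, 3036 lower). The weights of 24 h replicates 1 to 3 were 4.17, 0.767 and 0.499, so the weighted 24 h means rest mostly on replicate 1. The count was 1437 with scaled arrays, 1385 with quantile normalization and 1450 with the arrays numbered 3 left out. Leaving out 1 array at a time gave 102 to 822, 102 without 24 h replicate 2, 103 without 24 h replicate 1, 743 without 24 h replicate 3, and 541 to 822 without single 12 h or 48 h arrays. The probe count of 699 became 1766 with all 12 arrays, 419 with the 24 h arrays alone, and 108 to 824 without single arrays. The causes were not tested, beyond the fewer or added arrays themselves. Centring (684), blanks allowed (681) and the probe with the largest mean size (694) hardly moved the count.

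With the replicate number as a block the gene count was 765 and the probe count 793, and none of the 65 called named genes lost its call, while PPDKB, named but uncalled, gained one (adjusted p 0.0412). The numbers pair 24 h with 48 h, and there the block gave 0 calls, or 1 with only the arrays of these 2 times (952 features at an unadjusted p under 0.05). At 12 h and 24 h same-numbered arrays correlated at -0.201, -0.0251 and 0.447, so the numbers were not taken to pair them, and the block gave 0 calls. Arrays 1 and 2 of 12 h correlated best with arrays 2 and 1 of 24 h (0.399 and 0.525), which share no number, and no fit with crossed numbers was made, so the test of 24 h against 12 h takes no account of it. Both differences between times had 0 calls under the other alternatives, with 99 to 1757 and 147 to 813 features at an unadjusted p under 0.05.

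Of the 65 called, 6 were called under all 19: SWEET1B, TIP3;1, RAB16B, HXK6, SUT1 and GAPC2. Calls were lost by 50 without replicate 1, 56 without replicate 2, 19 without replicate 3, 26 with only the 24 h arrays (JAZ12, MYBS1, PCNA and ORC1 among them, at 0.0725, 0.0746, 0.0699 and 0.112), 11 without the arrays numbered 3, 1 to 9 without single 12 h or 48 h arrays, 1 with scaled arrays (PDC1) and 3 with the probe of the largest mean size (MT2C, HSF25 and ORC1, at 0.226, 0.107 and 0.0543). The median of the sucrose cleavage and synthesis list, 0.20, turned to -0.0047 without replicate 3, and was 0.2615 without replicate 1 and 0.1012 without replicate 2. The test of the sorbitol arrays, 6976 calls, was run in 1 setting.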
